A study of Rattus norvegicus with 3 samples.

Results

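HA-TET2 peaks at 10 genes of the Notch pathway were taken from the deposited peak lists of rat aortic smooth muscle cells (SMC). The genes were the receptors Notch1, Notch2, Notch3 and Notch4, the ligand Jag1, the DNA-binding partner Rbpj and the effectors Hes1, Hey1, Hey2 and Heyl. A peak was included when its assigned gene, or the gene whose exon or intron it lay in, was one of the 10. This gave 20 of 25521 peaks in the list from Control SMC and 9 of 9523 in the list from the Myocd-LSD1 line, and 2 of the Control peaks entered by host gene alone. Both groups were rat aortic SMC lines that received an adenovirus expressing HA-tagged TET2 for 24 h; the Control line is labelled WT and the other Myocd-LSD1, after myocardin, a coactivator of the smooth muscle programme, and LSD1, a histone H3 lysine 4 demethylase. How that line was made, and whether it is a single clone, is not stated in the labels. TET2 was therefore expressed from the virus in every sample, and no sample without it was used here. HA-TET2 was mapped by CUT&Tag with 500000 cells per assay, a method in which an antibody against the tag directs a transposase to cut and tag the surrounding DNA. There were 2 Control samples and 1 Myocd-LSD1 sample, with 1 peak list for each group. No value below thus has a replicate error, and no test between the conditions was possible.

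TET2 oxidises 5-methylcytosine, which in mammalian DNA lies mostly at CG dinucleotides. In Notch signalling, a ligand such as Jag1 on one cell binds a Notch receptor on its neighbour, the receptor is cleaved, and its intracellular part moves to the nucleus, where it joins RBPJ and Mastermind proteins to activate genes of the HES and HEY repressor families. In vascular smooth muscle, Notch3 is the receptor most closely tied to arterial identity, Notch2 is also expressed there, and Jag1 from endothelium and neighbouring SMC is a principal ligand. Notch4 is known mainly from endothelium.

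Reference promoter windows from 250 bases before to 50 after the annotated start are shown for 4 of the genes. They are RefSeq sequences of build GRCr8, not of rn6, the build of the peaks, and were matched by symbol; 9 of the 10 genes had a window (Hey1 did not), and Rbpj had 2, placed 178 bases apart. Rbpj and Hes1 are shown because they were the 2 genes with promoter peaks, and Notch3 and Notch4 as a CG-rich and a CG-poor receptor promoter without one. Capitals mark CG dinucleotides, and each sequence runs 5′ to 3′ along the gene.
Rbpj, GRCr8 chr14:61615211-61615510, minus strand: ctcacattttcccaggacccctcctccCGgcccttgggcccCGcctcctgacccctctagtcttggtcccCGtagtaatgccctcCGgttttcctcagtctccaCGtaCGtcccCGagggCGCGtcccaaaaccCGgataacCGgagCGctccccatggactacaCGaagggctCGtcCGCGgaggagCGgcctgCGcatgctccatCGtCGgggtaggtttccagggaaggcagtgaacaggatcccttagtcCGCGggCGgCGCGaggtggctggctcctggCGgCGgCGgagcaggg
Hes1, GRCr8 chr11:84212996-84213295, minus strand: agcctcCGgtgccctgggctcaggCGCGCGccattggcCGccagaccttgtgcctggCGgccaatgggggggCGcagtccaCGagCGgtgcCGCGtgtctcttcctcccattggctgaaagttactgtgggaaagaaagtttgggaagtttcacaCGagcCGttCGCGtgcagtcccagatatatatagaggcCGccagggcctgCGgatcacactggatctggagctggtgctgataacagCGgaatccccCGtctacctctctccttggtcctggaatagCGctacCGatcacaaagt
Notch3, GRCr8 chr7:11834536-11834835, minus strand: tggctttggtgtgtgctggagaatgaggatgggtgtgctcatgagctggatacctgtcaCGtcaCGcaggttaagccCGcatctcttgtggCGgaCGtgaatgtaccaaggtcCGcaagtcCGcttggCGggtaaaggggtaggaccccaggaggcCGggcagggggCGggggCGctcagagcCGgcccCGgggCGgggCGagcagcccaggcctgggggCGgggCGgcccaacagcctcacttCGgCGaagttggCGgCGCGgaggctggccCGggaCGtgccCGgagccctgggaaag
Notch4, GRCr8 chr20:4189023-4189322, minus strand: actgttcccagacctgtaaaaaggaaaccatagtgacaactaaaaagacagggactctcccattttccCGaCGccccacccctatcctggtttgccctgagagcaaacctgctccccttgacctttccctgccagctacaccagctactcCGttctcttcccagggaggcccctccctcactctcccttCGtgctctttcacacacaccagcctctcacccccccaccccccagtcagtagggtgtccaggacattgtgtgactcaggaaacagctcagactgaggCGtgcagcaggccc

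CG content differed widely among these windows. The Notch2 window held 41 CG dinucleotides, that of Hey2 32, the Rbpj windows 28 and 20, Jag1 27, Notch1 26, Notch3 25 and Hes1 21. Heyl had 10 and Notch4 5, the lowest numbers of the 9 genes. The median over the 10 windows was 25.5, against 7 over all 33469 windows of the reference table. Windows of genes with a Control promoter peak had a median of 21 and those of genes with a Myocd-LSD1 promoter peak 23, while those with a promoter peak in neither list had 5. The Notch genes without a promoter peak thus included some with many CG dinucleotides (Notch2, Hey2, Jag1, Notch1, Notch3) and both with few (Heyl, Notch4).

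**Figure D1:**
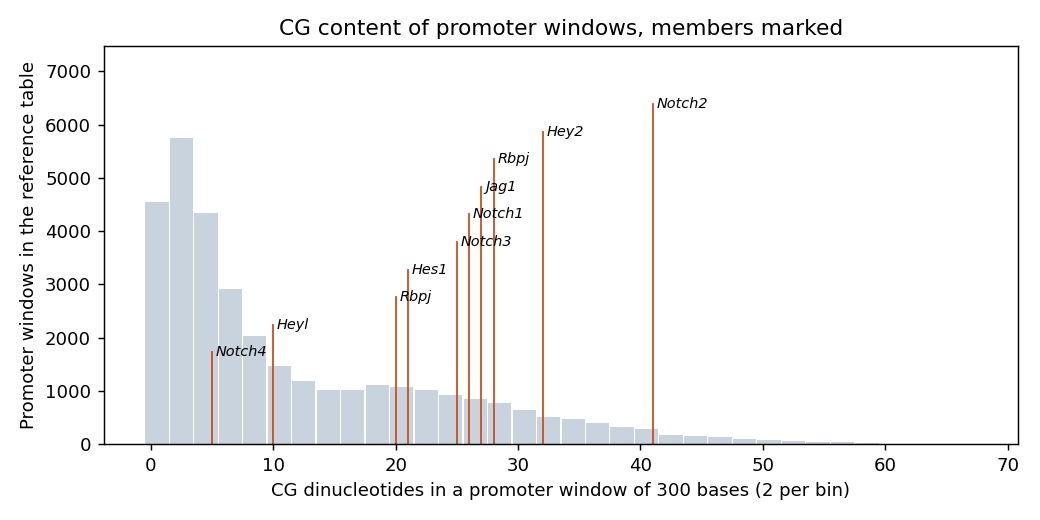
Number of CG dinucleotides in reference promoter windows of 300 bases (x axis, bins of 2) against the number of windows in the table (y axis); vertical lines mark the windows of the Notch genes, and their heights only separate the names. Notch2 is at 41 and Notch4 at 5, and Rbpj has 2 windows, at 20 and 28.

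The windows were also searched on both strands for GTGGGAA, a form of the motif that RBPJ binds, and for CACGTG, the E-box bound by many basic helix-loop-helix factors; each was counted on its own, also where the other overlapped it. GTGGGAA was found in the windows of Hes1 and Hey2, both on the strand of the gene, and began 124 and 61 bases before the start. Over all windows 6.29% held it. CACGTG was in none of the 10 windows and in 6.42% of all. The stretches around the Hes1 and Hey2 matches follow, with the motif in capitals, because these genes are classical targets of Notch signalling. A match describes letters in the window and not binding.
Hes1 motif: ctgaaagttactGTGGGAAagaaagtttgg
Hey2 motif: ctgggctgcggcGTGGGAAagagcctccag

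HA-TET2 peaks were found at 7 of the 10 genes in Control and at 6 in Myocd-LSD1. The 6 genes (Notch1, Notch2, Notch3, Rbpj, Hes1 and Hey2) were all among the 7, and Hey1 had a peak in Control alone. Over the 23154 protein-coding genes of the RefSeq table, the same rule gave 41.4% with a peak in Control and 24.7% in Myocd-LSD1, which takes no account of gene length. Notch4, Jag1 and Heyl had no peak in either list, as was the case for 12681 of the 23154 protein-coding genes. The peak numbers absent from the lists (45 in Control, 23 in Myocd-LSD1) never fell between 2 peaks of the same chromosome or scaffold, so none of them lay inside the stretch of a chromosome that peaks spanned. A missing call does not show the absence of TET2 at these genes at this depth.

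**Figure D2:**
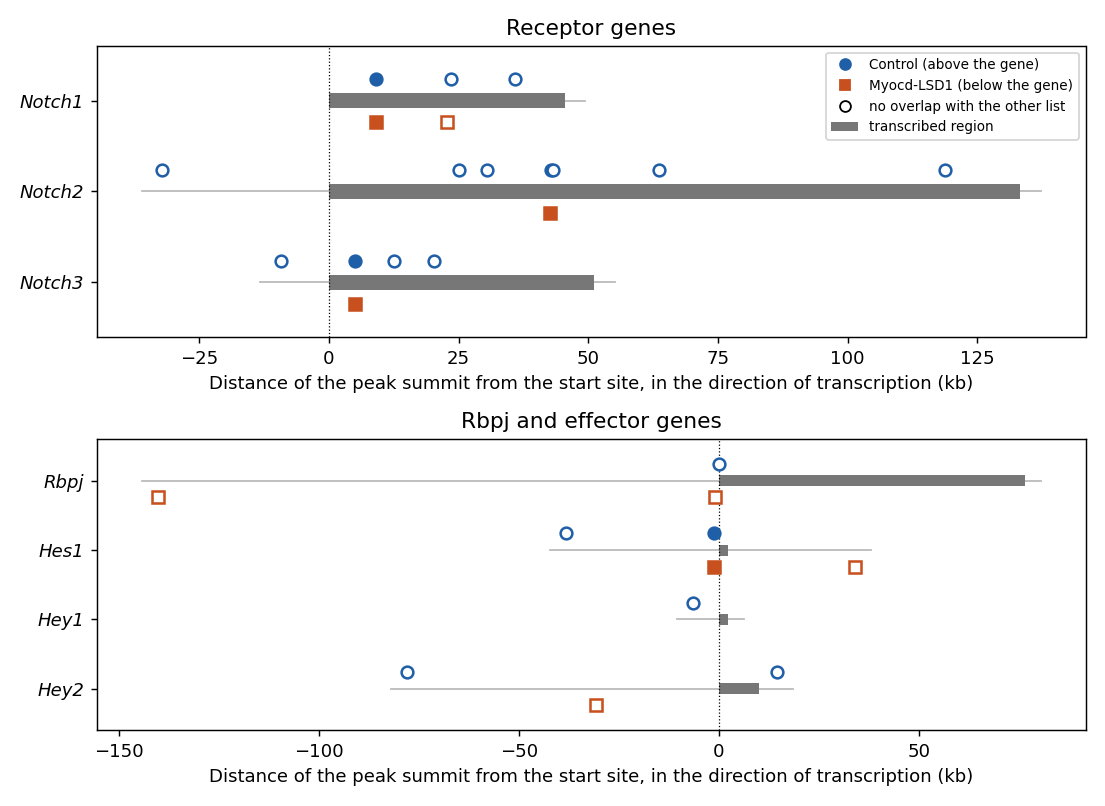
Summits of HA-TET2 peaks by distance from the start site in kb (x axis, positive in the direction of transcription) at the 7 genes with a peak; for Rbpj the start is that of NM_001106631.1. Filled symbols overlap a peak of the other list by at least 1 bp; Notch1, Notch2, Notch3 and Hes1 each have 1 such site.

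Depth was read from the peaks, since the lists give no read totals. The pile-up of overlapping fragments at a summit was recovered from the deposited fold enrichment and p-value for 99.8% of the peaks in each list, including all 29 at the Notch genes. The lowest local background was 0.175 fragments for Control and 0.0633 for Myocd-LSD1 (2.77 times less), so the Myocd-LSD1 list rests on thinner coverage. Control peaks at the Notch genes had a median pile-up of 7.5 fragments (3 to 26), near the 7 of the whole list. Myocd-LSD1 peaks at these genes had a median of 5 (3 to 11), as in the whole list. Their fold enrichments ran from 3.40 to 7.96 in Control (median 4.95, all peaks 5.24) and from 3.52 to 7.37 in Myocd-LSD1 (median 4.66, all peaks 4.72). None of these genes therefore carried a peak of exceptional height in either list. The fold is the authors' value for each peak and is used only within its own list.

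**Figure D3:**
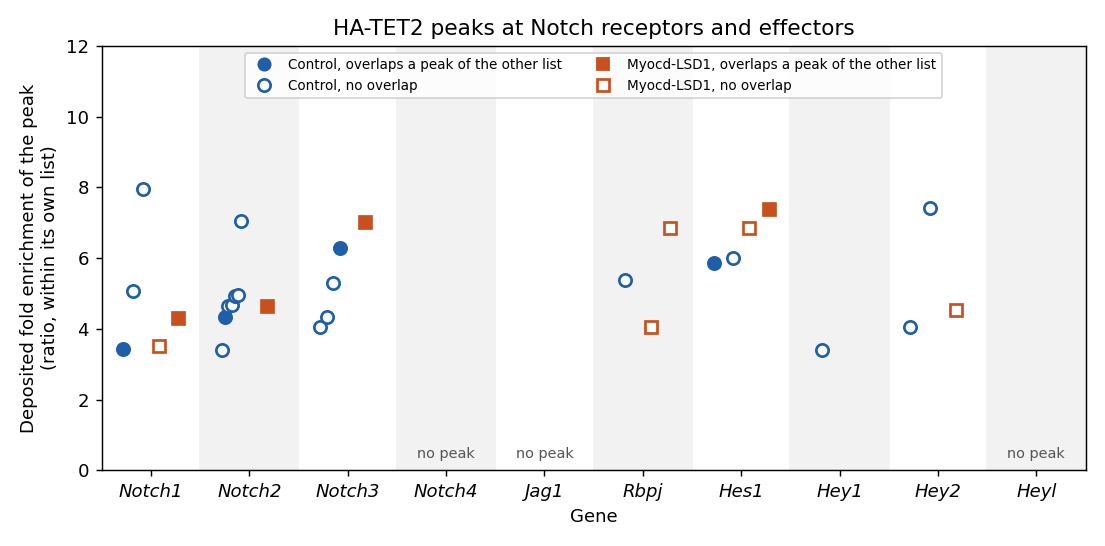
Deposited fold enrichment of each peak (y axis, a ratio within its own list) at the 10 genes (x axis), with Control as circles and Myocd-LSD1 as squares; filled symbols overlap a peak of the other list. The highest Control value is 7.96 at Notch1 and the highest Myocd-LSD1 value 7.37 at Hes1.

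Peaks of the lists coincided at 4 sites, called shared here when they overlapped by at least 1 bp. These were intron 2 of Notch1, of Notch2 and of Notch3, and a site upstream of Hes1. They made up 4 of the 20 Control peaks (20.0%, exact Clopper-Pearson 95% interval 5.73 to 43.7) and 4 of the 9 Myocd-LSD1 peaks (44.4%, 13.7 to 78.8). Over all peaks the shares were 22.0% and 59.4%, each within its interval, and these cover counting error only. Summits of the 4 pairs lay 7 to 137 bp apart (median 51.5), against a median of 79 over all 5623 shared Control peaks.

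Among the receptors, Notch1, Notch2 and Notch3 carried 14 Control peaks and 4 Myocd-LSD1 peaks, and none lay in a promoter, defined as the 3 kb on either side of an annotated start. Of the Control peaks 8 lay in introns, 4 in exons and 2 between genes. Of the Myocd-LSD1 peaks 3 lay in introns and 1 in an exon. Over the whole Control list introns held 29.8% of peaks, exons outside promoters 10.7% and intergenic sites 26.9%. Its promoters held 23.4% within 1 kb and a further 6.9% at 1 to 3 kb. The Myocd-LSD1 list as a whole had 23.7% in introns, 3.50% in exons and 26.8% in intergenic sites. Its promoters held 39.6% within 1 kb and a further 4.81% at 1 to 3 kb.

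Notch1, a receptor with broad roles in vascular development, had 3 Control peaks and 2 Myocd-LSD1 peaks. The shared one lay in intron 2 of 33, where the Control peak spanned rn6 chromosome 3, 3941852 to 3942091 (fold 3.42, 4 fragments) and that of Myocd-LSD1 3941959 to 3942147 (fold 4.31, 4 fragments). Summits were 60 bp apart, about 9.09 kb (Control) and 9.03 kb (Myocd-LSD1) downstream of the start. This was among the weakest Control peaks, at percentile 7.48 of the list by fold. Of the other 896 Control intron peaks with 4 fragments, 3.57% were shared. Among the other 325 Myocd-LSD1 intron peaks with 4 fragments, the share was 59.4%.

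The strongest Control peak at any of the 10 genes also lay in Notch1, near its 3′ end. It spanned 734 bp (3914911 to 3915644, fold 7.96, 26 fragments), was wider than 94.7% of Control peaks, and was annotated to exon 9 of 34. It was assigned to the neighbouring gene Sec16a, a factor of endoplasmic reticulum export sites, because that start was nearer (24126 bp) than the start of Notch1 (35371 bp). The nearest Myocd-LSD1 peak was 12.6 kb away. Of the other 20 Control exon peaks with 26 fragments, 10.0% were shared.

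A further Control peak at Notch1 lay in exon 27 of 34 (3927188 to 3927611, fold 5.08, 10 fragments), and a Myocd-LSD1 peak in exon 29 of 34 (3928203 to 3928466, fold 3.52, 3 fragments). They did not overlap, and 591 bp lay between them. Of the other 133 Control exon peaks with 10 fragments, 6.77% were shared. Among the other 49 Myocd-LSD1 exon peaks with 3 fragments, the share was 34.7%. Exon numbers in the deposited annotation do not all run from the start: in genes on the minus strand, such as Notch1 and Notch3, 83.5% of 562 Control exon peaks lay nearer to the place that counting from the 3′ end gives. Counted from the start, exons 9, 27 and 29 would be exons 26, 8 and 6. Intron numbers ran from the start for 82.7% of minus-strand and 82.6% of plus-strand peaks.

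Notch2 had the most peaks, 7 in Control and 1 in Myocd-LSD1, along a transcript of 133 kb. As many Control peaks or more were found at 3.38% of the 13947 genes with one. The shared site lay in intron 2 of 33, with the Control peak at chromosome 2, 200229920 to 200230154 (fold 4.35, 8 fragments) and the Myocd-LSD1 peak at 200229800 to 200230154 (fold 4.66, 5 fragments); both ended at the same base. A second Control peak in the same intron (200230444 to 200230704, fold 4.66, 9 fragments) began 289 bp beyond that end and had no counterpart of its own. Intron 2 of Notch2 thus held a pair of Control peaks, one of them shared.

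The highest Notch2 peak by fold lay in intron 1 (200212151 to 200212389, fold 7.04, 9 fragments) and was not shared. Others were in intron 1 again (200217517 to 200217815, fold 4.65), in intron 4 (200250768 to 200250957, fold 4.97) and 32007 bp upstream of the start (200154945 to 200155177, fold 3.40, 3 fragments). The last Control peak lay in exon 25 of 34 (200305774 to 200306154, fold 4.94), at 89.2% of the length of the transcript, and was assigned to the neighbouring gene Adam30, a metalloprotease gene. By rates for peaks of the same class and pile-up, 2.29% to 13.6% of peaks like these 7 were shared. For the Myocd-LSD1 peak in intron 2 of Notch2, the rate in its own list was 68.5%.

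Some other genes had the same numbers of peaks as Notch2, among the 13947 genes with a Control peak. By the same rule, 30 other named genes had 7 Control peaks, 1 of them shared, and 1 Myocd-LSD1 peak; the first in alphabetical order were Ankrd55, Arhgap23, Arhgef10 and Atp6v0a2.

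Notch3, the receptor enriched in arterial SMC, had 4 Control peaks and 1 Myocd-LSD1 peak. The shared site lay in intron 2 of 34, with the Control peak at chromosome 7, 14184629 to 14184854 (fold 6.27, 11 fragments) and the Myocd-LSD1 peak at 14184481 to 14184851 (fold 7.02, 9 fragments). It was the strongest Notch3 peak in Control by fold and the strongest receptor peak in Myocd-LSD1, at percentile 69.2 and 85.0 of the lists. Summits were 43 bp apart, 4.95 and 4.99 kb downstream of the start. Of the other 308 Control intron peaks with 11 fragments, 16.2% were shared. Among the other 71 Myocd-LSD1 intron peaks with 9 fragments, the share was 85.9%.

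The remaining Notch3 peaks were found in Control alone. One was in exon 25 of 35 (14176824 to 14177222, fold 5.28), which counted from the start would be exon 11, one in intron 19 of 34 (14169427 to 14169741, fold 4.32), and one 9127 bp upstream (14198815 to 14199103, fold 4.05). They rested on 7, 5 and 5 fragments, where 2.82%, 6.79% and 7.21% of like Control peaks were shared.

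At the receptors, then, Control peaks in intron 2 were shared in 3 of 4 cases, and those in other introns in 0 of 4. Over the whole Control list 13.7% of intron 2 peaks, 17.5% of intron 1 peaks and 12.9% of later intron peaks were shared, against 14.4% of all intron peaks. Intron 2 was singled out after these values were seen. The 4 receptor exon peaks of Control were not shared, beside a background of 8.52% for exon peaks. In Myocd-LSD1 all 3 receptor intron peaks were shared and the 1 exon peak was not. Over that whole list the shares were 51.7% and 55.9%.

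Rbpj, which binds DNA in both the repressing and the activating Notch complex, had promoter peaks in both lists, but at different places. The Control peak lay across the start of transcript NM_001106631.1 (chromosome 14, 59735160 to 59735786, fold 5.38, 8 fragments), from 336 bp before it to 290 bp after it, with its summit 20 bp upstream. The Myocd-LSD1 peak lay further upstream (59736304 to 59736583, fold 6.86, 9 fragments) and was assigned to another transcript, XM_008770190.2, whose start is 712 bp upstream of the first. Between the peaks lay 517 bp. A span of 300 bases was placed around each rn6 start as in the promoter windows. The Control peak covered in full the span around the start of NM_001106631.1, to which it was assigned. The Myocd-LSD1 peak covered 109 bases of the span around the start that it was assigned to, and ended 142 bp short of that start. Both spans were laid around rn6 starts and not on the GRCr8 windows, so the printed Rbpj sequence is not shown to be covered.

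The Myocd-LSD1 list thus had a promoter call at Rbpj where most calls of its kind had a Control peak: 88.5% of the other 200 promoter peaks within 1 kb with 9 fragments were shared. Of the other 519 such Control peaks with 8 fragments, 42.4% were shared. Over all Control promoter peaks within 1 kb the share was 44.5%. A second Myocd-LSD1 peak at Rbpj (59875777 to 59875941, fold 4.04, 4 fragments) lay 10350 bp upstream of the start of a longer transcript, XM_017599376.1. No Control peak lay within 54.6 kb of it. Among the other 315 Myocd-LSD1 intergenic peaks with 4 fragments, 55.2% were shared.

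Near misses, with a Myocd-LSD1 peak within 1 kb, were found for 3 of the 16 Control peaks that were not shared (18.8%). They lay at Rbpj, in an exon of Notch1 and in intron 2 of Notch2. The case at Notch2 was unlike that at Rbpj, since its Myocd-LSD1 peak was already shared with the neighbouring Control peak. Over the whole list a Myocd-LSD1 peak lay within 1 kb of 3.10% of 19898 unshared Control peaks, by the same rule. For the 5 unshared Myocd-LSD1 peaks the count was 2 (40.0%, all peaks 10.6%). These counts are small, they were made after the distances were seen, and they were not tested.

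Hes1, a repressor and the best known direct Notch target, was the only one of the 4 HES and HEY effector genes with a promoter peak, in both lists. The Control peak (chromosome 11, 74316190 to 74316579, fold 5.86, 12 fragments) and the Myocd-LSD1 peak (74316246 to 74316632, fold 7.37, 11 fragments) overlapped over most of their length, 85.6% of the wider one. Their summits were 7 bp apart, at 1286 and 1279 bp upstream of the start. The authors' class of promoter within 1 kb follows from the near edges of the peaks, at 941 and 997 bp, and the bulk of both lay beyond 1 kb. Neither reached the span around the rn6 start that corresponds to the GRCr8 window with the GTGGGAA match printed above. Of the other 254 Control promoter peaks within 1 kb with 12 fragments, 62.2% were shared. Among the other 118 such Myocd-LSD1 peaks with 11 fragments, the share was 92.4%.

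Each list also had an intergenic peak assigned to Hes1, on opposite sides of the gene. The Control peak lay 37901 bp upstream (74353150 to 74353456, fold 5.99, 7 fragments) and the Myocd-LSD1 peak 34111 bp from the start on the downstream side (74280822 to 74281138, fold 6.84, 7 fragments). Neither was shared. Of the other 185 Myocd-LSD1 intergenic peaks with 7 fragments, 82.2% were shared, and of 666 such Control peaks 16.1%.

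The HEY genes encode repressors related to HES1. Hey2, known for its role in arterial development, had 2 Control peaks and 1 Myocd-LSD1 peak, all intergenic and at separate places. In Control they lay 77890 bp upstream of the start (chromosome 1, 29113031 to 29113280, fold 4.06, 4 fragments) and 14228 bp downstream of it, beyond the end of the gene (29205398 to 29206000, fold 7.42, 10 fragments). In Myocd-LSD1 the peak lay 30639 bp upstream (29160341 to 29160531, fold 4.54, 4 fragments). At least 44.9 kb separated it from either Control peak. Of other intergenic Control peaks with 4 and 10 fragments, 5.56% and 24.3% were shared. Among the other 315 Myocd-LSD1 intergenic peaks with 4 fragments, the share was 55.2%. Hey1 had 1 weak Control peak 6279 bp upstream (chromosome 2, 95313699 to 95313868, fold 3.40, 3 fragments). At 3 fragments 2.29% of the other intergenic Control peaks were shared, so its missing counterpart says little. Heyl had none.

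The 6 intergenic Control peaks assigned to Notch genes were not shared, beside 18.9% of all such Control peaks. Nor were the 3 intergenic Myocd-LSD1 peaks, beside 51.4% of all such Myocd-LSD1 peaks. These counts are small and were not tested.

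Peaks of like depth gave the base for reading the 20 and 9 calls together. Adding up, over the 20 Control peaks, the shares of other Control peaks of the same class and pile-up that were shared gave 2.68, and 4 were observed. For the 9 Myocd-LSD1 peaks the same sum was 6.22, and 4 were observed. Control peaks in introns, exons and intergenic sites with few fragments were seldom shared anywhere in the list. These sums were not tested.

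**Figure D4:**
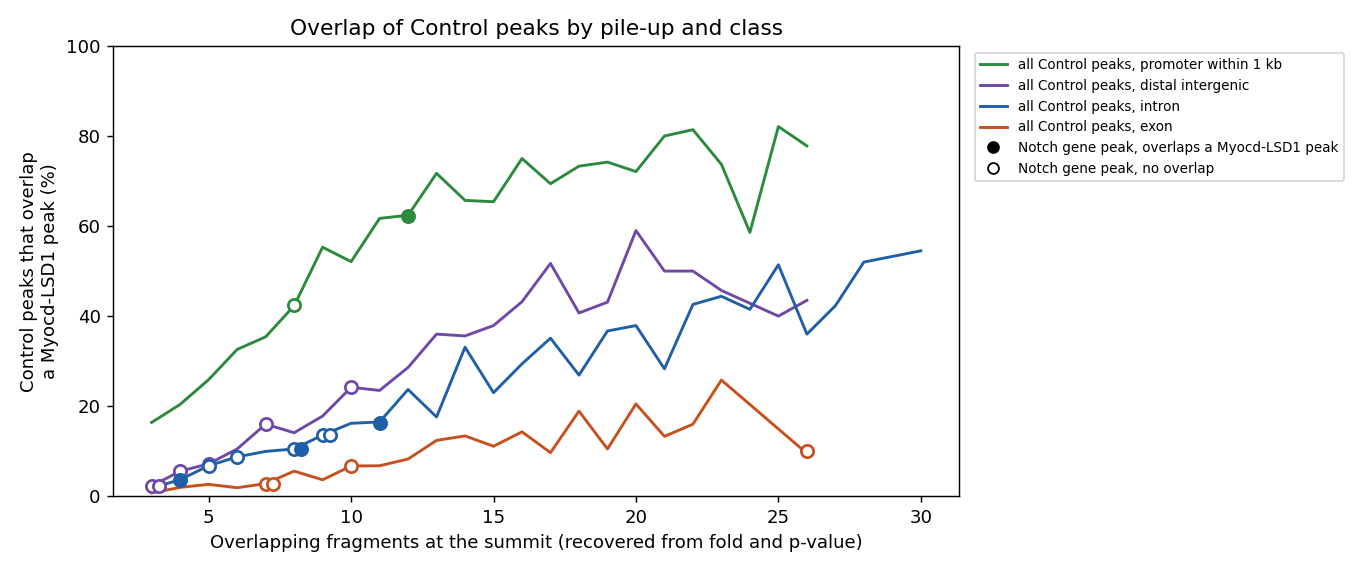
Share of Control peaks that overlap a Myocd-LSD1 peak (y axis, %) by the number of overlapping fragments at the summit (x axis), as lines for 4 classes where at least 20 peaks have that number; circles place each Notch gene peak of Control at the rate of its class and pile-up, filled where it is shared, with ties drawn side by side. The Hes1 peak stands at 62.2% and is shared, the Rbpj peak at 42.4% and is not. The 3 shared receptor peaks stand between 3.57% and 16.2%. Their Myocd-LSD1 counterparts, not drawn, had rates of 59.4% to 85.9% in their own list.

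Most of the other genes of the pathway carried a peak in Control and fewer did in Myocd-LSD1. Peaks were found at 36 of 56 such genes in Control (64.3%, all protein-coding genes 41.4%) and at 17 in Myocd-LSD1 (30.4%, all 24.7%). Of the 56, 13 had a peak in both lists and 16 had none, beside 4844 and 12681 of all 23154 protein-coding genes. At promoters the counts were 22 (39.3%) in Control and 11 (19.6%) in Myocd-LSD1, where 23.7% and 14.7% of all protein-coding genes had one. The Notch genes described above had 2 of 10 in each list. Of the 92 Control peaks at the 56 genes 16 were shared (17.4%, interval 10.3 to 26.7; all Control peaks 22.0%), and the median number per gene with a peak was 1, as over all protein-coding genes. No test of these counts was made.

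Promoter peaks in both lists were found at 8 of the 56, beside 2552 of all 23154 protein-coding genes. Of the 8, 6 are described. Adam17, a protease that sheds cell-surface proteins including Notch receptors, had shared promoter peaks with folds of 4.93 in Control and 4.21 in Myocd-LSD1. The corepressors Tle1 (4.71 and 4.92) and Tle4 (13.4 and 11.5), the deacetylase gene Hdac2 (10.3 and 5.99) and the acetyltransferase gene Ep300 (5.72 and 6.13) had shared promoter peaks too. At Numbl, a relative of the Notch inhibitor Numb, the promoter peaks (5.21 and 5.62) did not overlap, as at Rbpj. Tle4 had the highest fold of the pathway list in both lists.

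Of the Mastermind coactivators, Maml2 had 8 Control peaks, 3 of them shared, and 4 Myocd-LSD1 peaks. Maml3 had 13 Control peaks (highest fold 8.36, an intron peak of 20 fragments), none of them shared, and no Myocd-LSD1 peak. Strong Control peaks without a shared one were also found at Tle3 (10.4, a promoter peak 1 to 3 kb from the start), Lfng, a glycosyltransferase that modifies Notch receptors (9.96, in an exon), the Delta-like gene Dlk2 (7.13), the Deltex gene Dtx1 (7.09), the ubiquitin ligase gene Neurl1 (7.02) and Hes6 (7.0, at the promoter). Over the whole Control list 14.4% of intron, 8.52% of exon and 18.9% of intergenic peaks were shared. At promoters 44.5% were shared within 1 kb and 15.0% at 1 to 3 kb, so unshared peaks were common in each class. Of the other ligand genes, Jag2 had 3 Control peaks, 2 of them at a promoter. Dll3 and Dll4 had 1 each and Dll1 had none. No Myocd-LSD1 peak was found at these ligand genes, where 24.7% of all protein-coding genes had one.

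**Figure D5:**
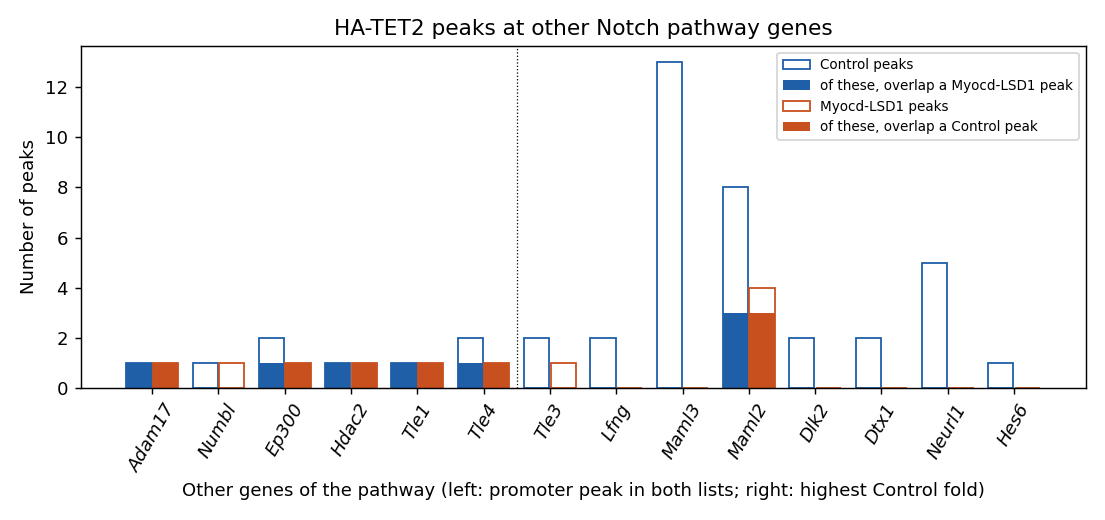
Number of peaks (y axis) at 14 other Notch pathway genes (x axis), outlined in blue for Control and in orange for Myocd-LSD1, with the filled part overlapping a peak of the other list; left of the dotted line are 6 genes with promoter peaks in both lists, right of it the 8 others of highest Control fold. Maml3 has 13 Control peaks and Maml2 8, of which 0 and 3 are shared, beside 22.0% of all Control peaks.

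The labelled cell type could not be checked by these data, since a TET2 peak is no measure of expression. Smooth muscle marker genes had a peak in 5 of 8 cases in Control and 0 of 8 in Myocd-LSD1, and endothelial marker genes, listed because Notch4 is known from endothelium, in 9 of 9 and 4 of 9. Over all protein-coding genes the shares were 41.4% in Control and 24.7% in Myocd-LSD1.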

How the data were processed

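CUT&Tag for HA-TET2 covered 2 Control samples and 1 Myocd-LSD1 sample. Per the submitters' processing notes, the tools were MACS2, Bowtie2, ChIPseeker and deepTools on build rn6; no versions are stated. The authors deposited 1 annotated list of narrow peaks per group, and both Control samples name the same list; it is not stated whether their reads were pooled. The deposited fold enrichment is a ratio per peak, and so, as deposited, each peak has a −log10 p-value and a −log10 q-value, the latter at least 1.32 in Control and 1.31 in Myocd-LSD1. The deposited score was not used. Starts count from 0 in the files and from 1 here. The peak named in each header line has no values.

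Exon and intron hosts were read from the annotation. Pile-ups k were solved from the fold, (k + 1)/(λ + 1), and the Poisson p-value, and a solution was kept when its misfit was under 0.1 of the next one. Peaks overlapping by at least 1 bp were called shared. Shares have exact binomial (Clopper-Pearson) 95% intervals; amplified fragments are not independent molecules, so these cover counting error only. With 1 list per group no p-value was made. Overlap and pile-up steps were checked on simulated data. The genes, the pathway list and the naming rule were chosen with earlier results of these data known: the 10 genes, genes hosting or assigned their peaks, pathway genes with promoter peaks in both lists and up to 8 others by Control fold, and up to 4 genes with peak numbers like those of the gene with most. The ligand genes, the intron 2 counts and the near misses were singled out after their values were seen. Another 2 pathway genes that the naming rule takes are not reported here. Alternatives were another overlap, a stricter q-value, a shortened Control list, a narrower promoter and membership by symbol. Python 3.11.15, pandas 2.3.3 and scipy 1.17.1 were used.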

Additional observations from a re-analysis of the deposited data

How the results depend on the processing

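With 1 list per group, a replicate could not be left out. No paired analysis was possible because the groups have 1 list each and no test was made. Under the alternatives tried, 15.4% to 40.0% of Control peaks and 22.2% to 44.4% of Myocd-LSD1 peaks at the 10 genes were shared. The main values were 20.0% and 44.4%. All lay within the intervals given above, but those are wide and the alternatives reuse the same peaks. Lying within them therefore does not show that the shares are stable. The Control ends rest on 2 of 13 peaks (stricter q-value, all Control peaks 20.0%) and 2 of 5 (shortened list, all 38.7%), and the lower Myocd-LSD1 end on 2 of 9 (shortened list, all 39.1%). At the stricter q-value 40.0% of Myocd-LSD1 peaks at the genes were shared, against 76.7% of all. At a reciprocal overlap of 50% the shares at the genes were 20.0% and 44.4%, above the 14.4% and 38.6% of all peaks, where at 1 bp they were below. Requiring a −log10 q-value of 3 left 13 Control and 5 Myocd-LSD1 peaks, with Hes1 and Notch3 holding the 2 shared sites. With the Control list shortened to 9523 peaks, 5 Control peaks remained at the genes and 1 of the 10 genes had a Control promoter peak (Hes1), in place of 2. Of the 56 other pathway genes, 18 then had a Control peak, in place of 36; 22 and 11 had one in Control and Myocd-LSD1 at promoters alone, and 11 had a Myocd-LSD1 peak at the stricter q-value, in place of 17. Fewer peaks were counted under each of the settings behind these gene counts, and the causes of the changes were not tested. The thinner coverage limits what missing calls in Myocd-LSD1 can show. The 5 Myocd-LSD1 peaks without a Control peak had a median of 4 fragments, against 7 for the 4 shared ones. Whether depth bears on these 5 peaks was not tested.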
